A study of Homo sapiens with 24 samples.

Results

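NFE2L2, the gene of the transcription factor NRF2, was followed with 9 genes of its regulators and partners: KEAP1, CUL3, SQSTM1, NFE2L1, BACH1, MAFF, MAFG, MAFK and OSGIN1. They were chosen by name with earlier results of these data already known, and so were the gene lists used further on. The shares of these genes and lists that were called are therefore descriptions and not tests. Each symbol was looked up in a table of raw read counts for 28307 genes. All 10 were found. All 10 also passed the filter on low counts in both cell lines, where 14953 genes were tested in SUM159 and 13953 in SW620.

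The RNA came from SUM159, a breast cancer line with mesenchymal traits, and from SW620, a colon cancer line, each of them a single established line. Adherent cultures received nifuroxazide (NIF) or the solvent DMSO for 30 h, and cells were then sorted on aldehyde dehydrogenase activity into ALDHbr cells, which the labels call cancer stem cells, and ALDHneg cells. The 24 libraries of stranded total RNA fall into 8 groups of 3, each from independent experiments: SUM159 ALDHbr, SUM159 ALDHneg, SW620 ALDHbr and SW620 ALDHneg, each under NIF and under DMSO. The groups share the 30 h of culture, and the concentration of NIF applied is not given in the sample descriptions.

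NRF2 turns on genes for glutathione synthesis, quinone reduction, NADPH supply and drug conjugation when a cell meets electrophiles or oxidants. In resting cells KEAP1 holds NRF2 and, as the adaptor of a CUL3 ubiquitin ligase, sends it to the proteasome. Electrophiles that modify cysteines of KEAP1 spare NRF2 from this fate, so much of its control lies in protein stability, which counts of RNA do not measure. NRF2 binds antioxidant response elements as a dimer with a small Maf protein (MAFF, MAFG or MAFK), and BACH1 competes for the same partners and sites as a repressor.

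Total counts ran from 30253187 to 43127948 a library. ALDH1A1, the dehydrogenase most often behind the sorted activity, stood at 135 ± 27.7 CPM in SUM159 ALDHbr cells and 0.480 ± 0.0618 CPM in ALDHneg cells under DMSO (SD, n = 3), where CPM is the count of a gene scaled to library size. The scaling was done within each line, so small differences in CPM between lines are not read. In SW620 the sorted groups were closer, at 1314 ± 51.3 CPM and 901 ± 19.3 CPM. ALDH1A3, a related dehydrogenase, went against the sort in SW620 under DMSO. It had 138 ± 5.35 CPM in ALDHbr and 177 ± 4.66 CPM in ALDHneg cells (edgeR adjusted p = 0.000723). In SUM159 it stood at 0.620 ± 0.233 CPM and 0.202 ± 0.0655 CPM (edgeR adjusted p = 0.0158). Under NIF, ALDH1A1 was lower in SW620 (log2 fold change -0.46 ± 0.05 in ALDHbr and -0.71 ± 0.05 in ALDHneg cells, edgeR adjusted p = 3.1e-06 and 3.64e-08). ALDH1A3 was also lower there (-1.47 ± 0.06 and -1.89 ± 0.06). In SUM159 ALDHbr cells ALDH1A1 gave 0.38 ± 0.17 (edgeR adjusted p = 0.253, and 0.000102 with a replicate block described further on). SW620 minus SUM159, that difference was -0.85 ± 0.19 in ALDHbr cells (edgeR adjusted p = 0.00185). ALDH1A3 gave -1.26 ± 0.42 in SUM159 ALDHbr cells (0.129, and 0.0317 with the block), at levels below 1 CPM. In SUM159 ALDHneg cells both genes averaged below 1 CPM. Their part in the results that follow was not tested. The summed level of 10 mesenchymal markers was 9863 to 13180 CPM in SUM159 and 88.5 to 163 CPM in SW620, where VIM, ZEB1, CDH2, FN1, SPARC, TWIST1 and LOX averaged below 1 CPM. Of the 10 colon epithelial markers, summed at 2085 to 2615 CPM in SW620, 9 averaged below 1 CPM in SUM159, while CDX1 and CDX2 averaged below 1 CPM in SW620 as well. Replicate 2 of the SW620 ALDHbr DMSO group stood apart. With it 1577 genes differed between ALDHbr and ALDHneg SW620 cells under DMSO, and without it 5487 did. Values without it are given where they end a call or move a called value by over 1.5 times, and for BACH1. More of the 10 genes were called between the SW620 populations under DMSO without it. Of the calls gained there only that of BACH1 is given with its value.

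The promoter windows of the genes were searched because 9 of them moved together in SW620, as described further on. RefSeq windows (GRCh38.p14, from 250 bases before to 50 bases after a start site) covered 9 of the 10 genes with 18 windows; MAFK had none. Both strands were searched for TGACNNNGC, the core of the antioxidant response element, for TGANTCA, a core shared by AP-1 and Maf sites, and for TGCTGAC, the first part of the Maf recognition element. In capitals are the matched letters, and every stretch is written on the strand of its gene. In the second KEAP1 line and in those of MAFF and SQSTM1 the motif reads on the opposite strand. The KEAP1 and SQSTM1 matches lie in windows of start sites inside the gene. The window at the outermost start site of each of these genes held none.
KEAP1, chr19:10502804-10502838, minus strand, match at -54 from the start site: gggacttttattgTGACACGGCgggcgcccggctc
KEAP1, chr19:10502781-10502815, minus strand, match at -31: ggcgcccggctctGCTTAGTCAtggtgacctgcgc
MAFF, chr22:38201859-38201893, plus strand, match at -122: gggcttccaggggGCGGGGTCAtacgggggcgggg
BACH1, chr21:29298861-29298893, plus strand, match at -48: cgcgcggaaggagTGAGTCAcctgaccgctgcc
OSGIN1, chr16:83953130-83953162, plus strand, match at -97: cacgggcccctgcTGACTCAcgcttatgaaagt
SQSTM1, chr5:179820694-179820726, plus strand, match at -198: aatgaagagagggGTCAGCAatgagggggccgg

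The first 3 lines hold TGACNNNGC, which 2 of 18 windows (11.1%) carried against 13.3% of 35116 windows of all genes. TGANTCA, shown for BACH1 and OSGIN1, was in 2 of 18 windows against 7.71% of all. TGCTGAC was in 2 of 18 against 4.19% of all, in SQSTM1 and in OSGIN1, where it overlaps TGANTCA and begins 3 bases earlier. For scale, 10 of 27 windows (37%) of a list of NRF2 target genes held TGACNNNGC. No window of NFE2L2, NFE2L1, MAFG or CUL3 held any of these letters, which says only that they are not in these windows. A match is a run of letters, and binding was not measured.

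Levels can be compared between genes only per length, so CPM were divided by the length of each gene's MANE Select transcript. On this scale SQSTM1, the gene of the autophagy receptor p62, was the highest under DMSO in all 4 sorted groups, at 187 to 203 CPM per kilobase. NFE2L2 followed at 49.1 to 58.3, NFE2L1 at 40.3 to 54.5, KEAP1 at 34.0 to 38.6 and MAFK at 26.7 to 46.3 CPM per kilobase. NFE2L2 and NFE2L1 changed places between the lines. NFE2L2 was the higher in SUM159 (55.7 ± 5.33 against 42.5 ± 2.24 in ALDHbr cells), with MAFK between them in SUM159 ALDHneg cells, at 46.3. NFE2L1 was the higher in SW620 ALDHneg cells (54.5 ± 0.533 against 49.1 ± 0.0903). In SW620 ALDHbr cells NFE2L2 and NFE2L1 did not differ beyond their spread (50.6 ± 1.65 and 50.8 ± 3.23). BACH1 was the lowest in every group, at 2.36 to 6.40 CPM per kilobase, below MAFF at 7.81 to 26.4 and OSGIN1 at 9.41 to 11.5. MAFG stood at 17.5 to 18.6 and CUL3 at 16.4 to 21.3 CPM per kilobase, above MAFF in all groups but SUM159 ALDHneg, and above it in SUM159 ALDHbr cells by less than the spread of MAFF.

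NFE2L2 (Entrez Gene 4780, GRCh38.p14 chr2:177230303-177264727) moved in opposite directions in the lines. In SUM159 ALDHbr cells its libraries stood at 102, 105 and 93.5 CPM under NIF and at 139, 148 and 122 CPM under DMSO. Every NIF library was below every DMSO library, and the fall was 1.36-fold, a log2 fold change of -0.44 ± 0.07 (standard error; edgeR adjusted p = 0.00282). In such bulk RNA, fewer cells of a kind and less RNA per cell cannot be told apart. In SUM159 ALDHneg cells the NIF libraries held 111, 115 and 106 CPM against 148, 139 and 139.8 CPM, again without overlap (log2 fold change -0.37 ± 0.07, edgeR adjusted p = 0.0118). The ALDHneg call of NFE2L2 was lost when NIF replicate 1, NIF replicate 3 or DMSO replicate 1 was left out, with an edgeR adjusted p of 0.0516, 0.0674 and 0.0582.

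In SW620 the NIF libraries were the higher ones. SW620 ALDHneg cells had 139, 137 and 136 CPM under NIF and 120.4, 120.1 and 120.0 CPM under DMSO, with no overlap, a log2 fold change of 0.19 ± 0.05 (edgeR adjusted p = 0.00325). SW620 ALDHbr cells had 137, 130.2 and 137 CPM against 119, 126 and 126 CPM, also without overlap, at 0.12 ± 0.05 (edgeR adjusted p = 0.0439). That last call was lost in 9 of 14 alternative settings, among them library-size scaling (edgeR adjusted p = 0.136) and a fit of only the groups compared (0.16), and it was kept without DMSO replicate 2 (0.0168). The test of the difference between lines, SW620 minus SUM159, gave 0.56 ± 0.09 in ALDHbr cells (edgeR adjusted p = 3.73e-05) and 0.57 ± 0.09 in ALDHneg cells (edgeR adjusted p = 2.99e-05).

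The number of genes called, either way, has to be read against all genes tested. In SUM159 ALDHbr cells 3 of 10 were called at an adjusted p of 0.05, where 3.16% of all genes were, namely 2 higher (0.936% of all) and NFE2L2 lower (2.23% of all). SUM159 ALDHneg cells gave 2 calls against 3.3%, with OSGIN1 higher (1.1% of all) and NFE2L2 lower (2.2%). In SW620 ALDHbr cells 9 of 10 were called against 43.3%, all higher (21.4% of all genes were called higher and 21.9% lower). In SW620 ALDHneg cells it was again 9 of 10 against 45.1%, all higher (22.3% and 22.7%). CUL3 was the gene without a call in both SW620 populations. The median log2 fold change of the 10 was 0.03 and 0.09 in SUM159 and 0.71 and 0.65 in SW620 ALDHbr and ALDHneg cells, with the median of all genes within 0.008 of 0 in each comparison.

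Same-numbered SUM159 libraries deviated together, so a fit with the replicate number as a block was also made there. With the block 5 of the 10 were called in SUM159 ALDHbr cells against 13.3% of all genes, and 6 of 10 in ALDHneg cells against 13.2%. The added calls in ALDHbr cells were KEAP1 and MAFK. In ALDHneg cells they were KEAP1, MAFF, MAFK and SQSTM1.

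**Figure D1:**
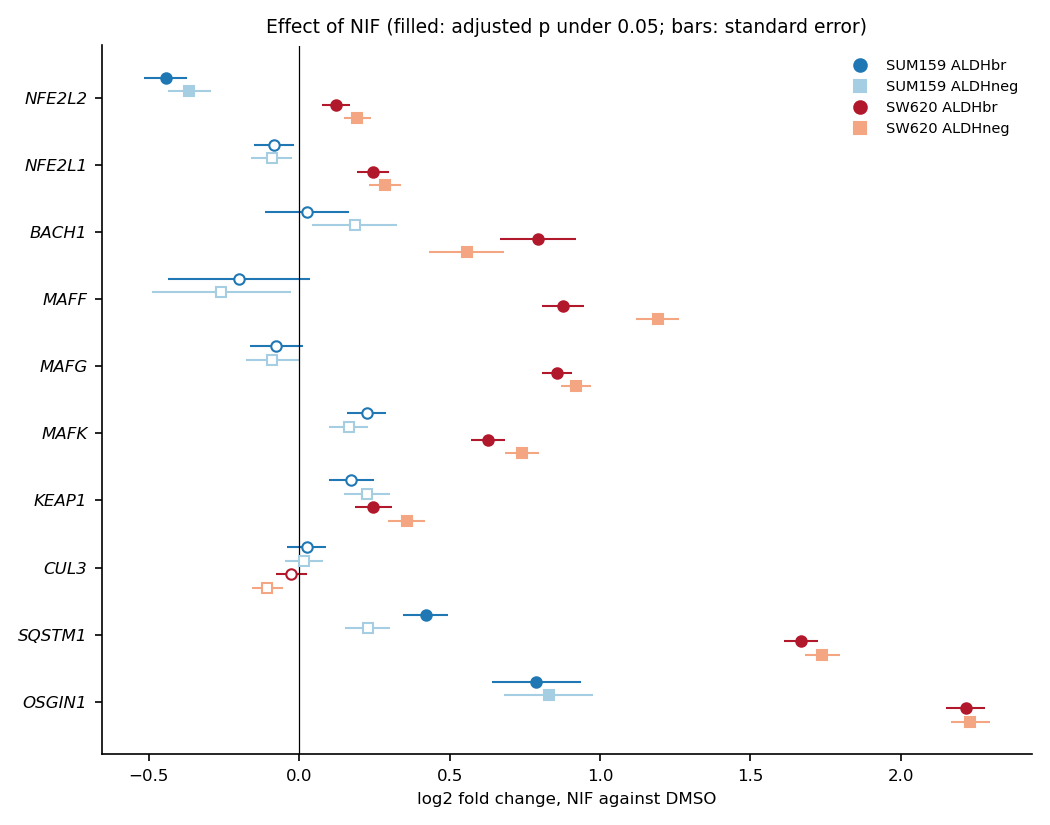
Log2 fold change of NIF against DMSO (horizontal axis) for each gene in the 4 sorted groups; bars are standard errors and filled symbols passed an adjusted p of 0.05. All SW620 symbols but those of CUL3 are filled and right of 0, up to 2.23 for OSGIN1, and in SUM159 NFE2L2 is left of 0.

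The KEAP1 ligase was next. KEAP1 (Entrez Gene 9817, chr19:10486125-10503356), the sensor and substrate adaptor, had 87.0, 83.8 and 90.9 CPM under DMSO in SW620 ALDHneg cells and 108, 116 and 111 CPM under NIF, without overlap. The log2 fold change was 0.36 ± 0.06 (edgeR adjusted p = 0.00034), and in SW620 ALDHbr cells it was 0.25 ± 0.06 (edgeR adjusted p = 0.00567). In SUM159 the values were 0.17 ± 0.08 in ALDHbr cells (edgeR adjusted p = 0.263, 0.0213 with the replicate block) and 0.22 ± 0.08 in ALDHneg cells (0.133, and 0.00299 with the block). Without DMSO replicate 2 of that group, KEAP1 was also called in SUM159 ALDHneg cells (edgeR adjusted p = 0.046). The difference between lines did not pass, at 0.07 ± 0.10 and 0.14 ± 0.10 (edgeR adjusted p = 0.699 and 0.381). CUL3 (Entrez Gene 8452, chr2:224470150-224585363), the cullin that KEAP1 docks to, ranged from 101 to 146 CPM over all libraries. Its log2 fold changes lay between -0.11 ± 0.05, in SW620 ALDHneg cells (edgeR adjusted p = 0.112), and 0.02 ± 0.06, in SUM159 ALDHbr cells (0.899). The lowest of these was called under library-size scaling (edgeR adjusted p = 0.0287) and in a fit of only the groups compared (0.031).

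The balance of NFE2L2 to KEAP1 transcripts followed from both genes. The log2 ratio of their CPM, which is not corrected for length and is read only between groups, averaged 0.49 ± 0.10 under DMSO and -0.13 ± 0.07 under NIF in SUM159 ALDHbr cells (SD, n = 3). In SUM159 ALDHneg cells it was 0.53 ± 0.15 and -0.06 ± 0.10. No NIF library of SUM159 reached the lowest DMSO library of its population. In SW620 the means were 0.37 ± 0.13 and 0.24 ± 0.07 in ALDHbr cells, where the groups overlapped, and 0.46 ± 0.06 and 0.30 ± 0.07 in ALDHneg cells, where they did not. The ratios were described and not tested.

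SQSTM1 (Entrez Gene 8878, chr5:179806393-179838078) encodes p62, which ties cargo to autophagosomes and can also draw KEAP1 away from NRF2. In SW620 ALDHbr cells it had 1669, 1748 and 1855 CPM under NIF and 567, 513 and 579 CPM under DMSO. The groups were far apart, 3.18-fold, with a log2 fold change of 1.67 ± 0.06 (edgeR adjusted p = 5.31e-11). In SW620 ALDHneg cells 1763, 1799.8 and 1751 CPM stood against 524, 521 and 546 CPM, or 1.74 ± 0.06 (edgeR adjusted p = 3.04e-11). SUM159 ALDHbr cells had 756, 839 and 725 CPM against 591, 586 and 557 CPM. These groups did not overlap either, and the log2 fold change was 0.42 ± 0.07 (edgeR adjusted p = 0.00545). In SUM159 ALDHneg cells 673, 629.8 and 583 CPM stood against 579, 534 and 499 CPM, again all NIF libraries above all DMSO libraries, though by less. There the value was 0.23 ± 0.07 (edgeR adjusted p = 0.119, and 0.00268 with the replicate block). DESeq2, without the block, also called it (adjusted p = 0.0461). The difference between lines was 1.25 ± 0.10 in ALDHbr and 1.52 ± 0.10 in ALDHneg cells (edgeR adjusted p = 1.09e-09 and 3.34e-11).

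NFE2L1 (Entrez Gene 4779, chr17:48048359-48061545) is the NRF2 relative that restores proteasome genes when the proteasome is impaired. Over all libraries it ran from 176 to 324 CPM. It rose in SW620 by 0.24 ± 0.05 in ALDHbr cells and 0.29 ± 0.05 in ALDHneg cells on the log2 scale (edgeR adjusted p = 0.00206 and 0.000569). In SUM159 its log2 fold changes were -0.08 ± 0.07 and -0.09 ± 0.07 (edgeR adjusted p = 0.582 and 0.545). The lines differed by 0.33 ± 0.09 and 0.38 ± 0.09 (edgeR adjusted p = 0.00798 and 0.00202).

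BACH1 (Entrez Gene 571, chr21:29298922-29361894), the heme-sensing repressor of the same elements, rose in SW620 as well. In ALDHneg cells its libraries had 54.0, 50.9 and 53.8 CPM under NIF against 34.2, 36.3 and 37.3 CPM, a log2 fold change of 0.56 ± 0.12 (edgeR adjusted p = 0.00225). In ALDHbr cells they had 52.5, 49.3 and 41.4 CPM against 22.5, 34.7 and 25.6 CPM. The groups did not overlap, although DMSO replicate 2 was the highest of its group. The log2 fold change was 0.79 ± 0.13 (edgeR adjusted p = 0.000181) and 1.01 ± 0.09 without that library. In SUM159, BACH1 stayed between 11.0 and 17.4 CPM, at 0.03 ± 0.14 and 0.18 ± 0.14 (edgeR adjusted p = 0.954 and 0.568). The lines differed by 0.76 ± 0.20 in ALDHbr cells (edgeR adjusted p = 0.00652; 0.96 ± 0.18 and 0.000207 without that library), and in ALDHneg cells the difference of 0.38 ± 0.20 did not pass (edgeR adjusted p = 0.19). The log2 ratio of NFE2L2 to BACH1 CPM was lower in every NIF library than in any DMSO library of the same population and line, which is described here without a test. It went from 3.18 ± 0.18 under DMSO to 2.72 ± 0.23 under NIF in SUM159 ALDHbr cells and from 3.445 ± 0.24 to 2.89 ± 0.27 in SUM159 ALDHneg cells. The highest NIF and lowest DMSO libraries nearly met there, at 2.985 and 2.992 in ALDHbr and 3.188 and 3.199 in ALDHneg cells. In SW620 the ratio went from 2.19 ± 0.29 to 1.502 ± 0.19 and from 1.74 ± 0.07 to 1.38 ± 0.04.

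**Figure D2:**
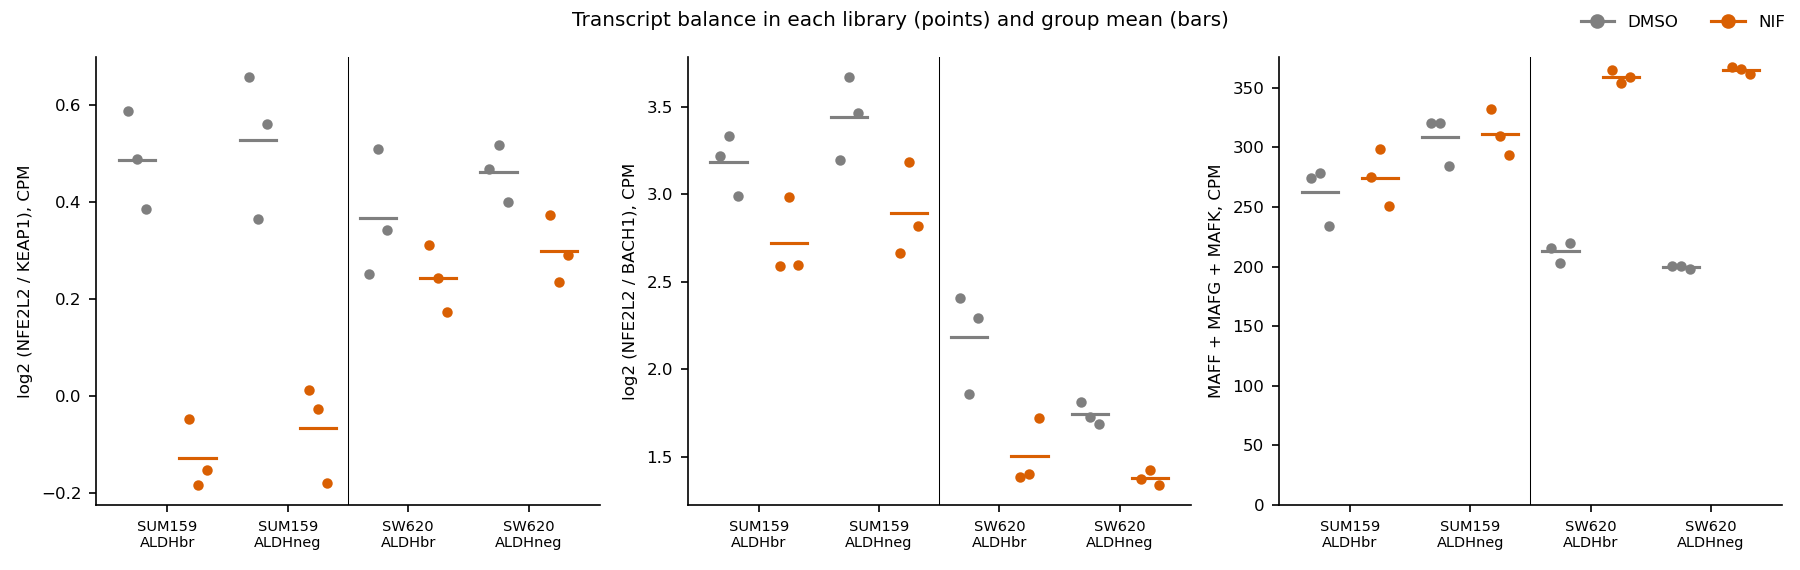
Log2 ratio of NFE2L2 to KEAP1 (left) and to BACH1 (middle) and the summed CPM of MAFF, MAFG and MAFK (right, from 0) in each library; grey is DMSO, orange is NIF, bars are means of 3. Under NIF the NFE2L2 to KEAP1 ratio is lower in SUM159 than in any other group, and the summed small Maf level in SW620 is 354 to 367 CPM against at most 219 CPM under DMSO.

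The small Maf genes encode the obligate partners of NRF2 and of BACH1, and lack an activation domain of their own. MAFG (Entrez Gene 4097, chr17:81918270-81931244) stood at 169.5, 161 and 151 CPM under NIF and at 87.9, 90.4 and 87.7 CPM under DMSO in SW620 ALDHbr cells. That is 1.81-fold, a log2 fold change of 0.86 ± 0.05 (edgeR adjusted p = 1.27e-08), with 0.92 ± 0.05 in ALDHneg cells (edgeR adjusted p = 4.99e-09). MAFF (Entrez Gene 23764, chr22:38201994-38216511), the stress-responsive member of the 3, had 42.3, 41.9 and 47.0 CPM against 24.8, 21.6 and 24.97 CPM in SW620 ALDHbr cells. The groups were apart there (0.88 ± 0.07, edgeR adjusted p = 2.81e-07) and further apart in ALDHneg cells, where 40.7, 44.5 and 41.9 CPM stood against 18.5, 18.1 and 19.1 CPM (1.19 ± 0.07, edgeR adjusted p = 1.18e-08). MAFK (Entrez Gene 7975, chr7:1530702-1543043) rose by 0.63 ± 0.06 and 0.74 ± 0.06 in SW620 (edgeR adjusted p = 9.51e-07 and 1.53e-07).

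In SUM159 none of the small Maf genes was called in the main edgeR fit, which has no block. MAFG stood at 78.3 to 100.1 CPM in SUM159, with log2 fold changes of -0.08 ± 0.09 and -0.09 ± 0.09 (edgeR adjusted p = 0.727 and 0.682). MAFF varied widely between replicates, with 23.3 to 47.2 CPM among the 3 DMSO libraries of SUM159 ALDHbr cells. Its log2 fold changes there were -0.20 ± 0.24 and -0.26 ± 0.23 (edgeR adjusted p = 0.736 and 0.639, and for ALDHneg cells 0.0425 with the replicate block). MAFK gave 0.22 ± 0.07 and 0.16 ± 0.06 (edgeR adjusted p = 0.0812 and 0.207, and 0.00234 and 0.0179 with the block). In ALDHbr cells it was also called by DESeq2 without the block (adjusted p = 0.0228). Library-size scaling and the fit of all 24 libraries called it there too (edgeR adjusted p = 0.0422 and 0.0369). The sum of the 3 genes in CPM, in which longer transcripts weigh more, was 262 ± 24.5 under DMSO and 275 ± 23.9 under NIF in SUM159 ALDHbr cells and 309 ± 20.8 and 312 ± 19.2 in ALDHneg cells. In SW620 it was 213 ± 8.37 and 359 ± 5.49 in ALDHbr cells and 200 ± 1.61 and 365 ± 2.97 in ALDHneg cells.

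OSGIN1 (Entrez Gene 29948, chr16:83953240-83966332), an oxidative stress-induced growth inhibitor known as a target of NRF2, had the largest rise of the 10 genes in all 4 sorted groups. Its SW620 ALDHbr libraries held 97.5, 100.04 and 111 CPM under NIF against 22.5, 22.0 and 21.9 CPM. This was 4.65-fold (log2 fold change 2.22 ± 0.06, edgeR adjusted p = 1.58e-11), and ALDHneg cells gave 4.70-fold (2.23 ± 0.06, edgeR adjusted p = 1.17e-11). SUM159 ALDHbr libraries held 30.6, 38.3 and 29.6 CPM against 17.9, 23.4 and 15.9 CPM, and ALDHneg libraries 30.4, 31.1 and 34.7 CPM against 18.7, 21.0 and 14.6 CPM. Neither pair of groups overlapped, at 0.79 ± 0.15 (edgeR adjusted p = 0.00847) and 0.83 ± 0.15 (edgeR adjusted p = 0.0068). Without DMSO replicate 1 the SUM159 ALDHbr call was lost (0.75, edgeR adjusted p = 0.0508). The rise was larger in SW620 by 1.43 ± 0.17 and 1.41 ± 0.17 (edgeR adjusted p = 1.28e-06 and 1.3e-06).

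Over the 10 genes, the NIF response was higher in SW620 than in SUM159 for 8 in ALDHbr cells, where 23.1% of 16271 genes were called in either direction, and for 7 in ALDHneg cells, where 22.4% were. None was lower. KEAP1 and CUL3 were not called in either population. Each line has its own culture and its own 12 libraries, so the line cannot be told apart from whatever else differed between the 2 sets. The paper lists drug concentrations by cell line, so whether both lines received the same concentration of NIF is not known here. The 15 calls held in all 18 alternative settings of each. For the 8 in ALDHbr cells these include leaving out SW620 ALDHbr DMSO replicate 2. That library is not in the groups compared for ALDHneg cells and was not left out there.

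**Figure D3:**
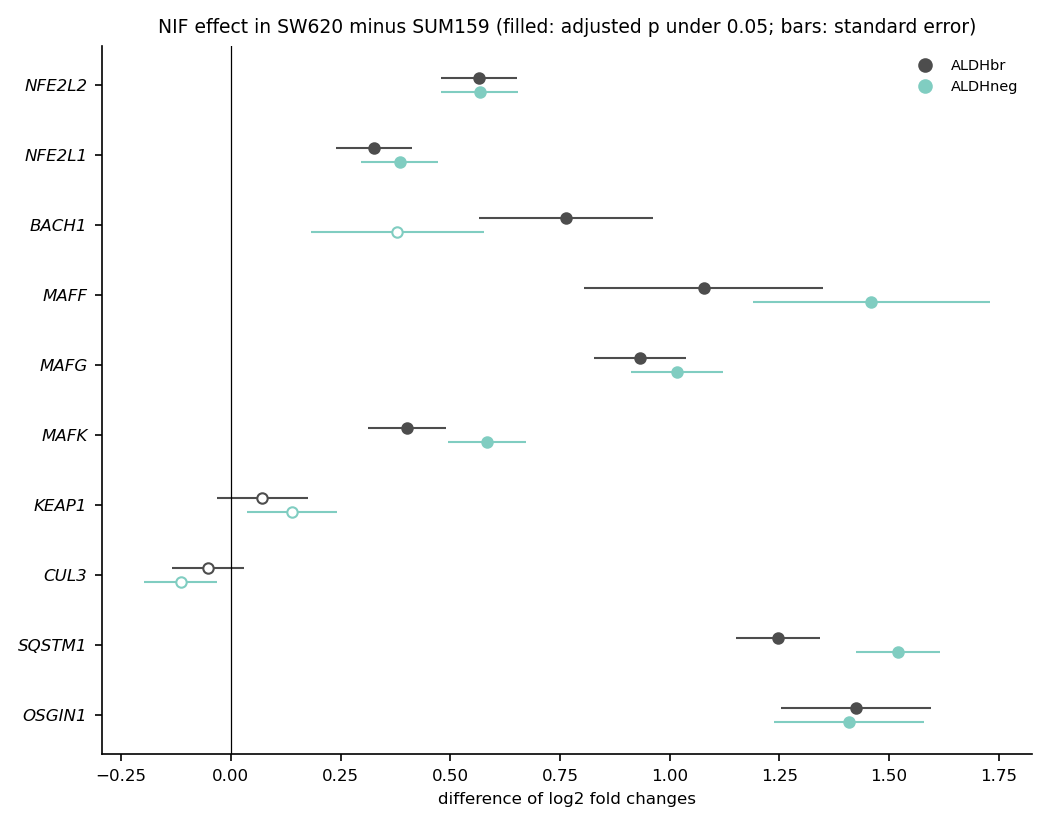
Difference of the log2 fold changes of NIF, SW620 minus SUM159 (horizontal axis), for each gene in ALDHbr and ALDHneg cells; bars are standard errors and filled symbols passed an adjusted p of 0.05. All filled symbols lie right of 0, from 0.33 for NFE2L1 to 1.52 for SQSTM1.

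The 2 sorted populations were compared under DMSO. In SUM159, 2 of the 10 genes were called against 23% of all genes, both lower in ALDHbr cells. MAFF stood at 47.2, 41.8 and 23.3 CPM in ALDHbr cells and at 70.8, 64.3 and 52.8 CPM in ALDHneg cells, without overlap (-0.75 ± 0.23, edgeR adjusted p = 0.0321). MAFK was at 129, 137 and 126 CPM against 154, 169.6 and 146 CPM, also apart (-0.26 ± 0.07, edgeR adjusted p = 0.00904). The MAFF call was lost with DESeq2 (adjusted p = 0.0604) and when ALDHbr replicate 3, ALDHneg replicate 1 or ALDHneg replicate 2 was left out. In SW620, 1 of 10 was called against 11.3%, namely MAFF, which was higher in ALDHbr cells (0.36 ± 0.07, edgeR adjusted p = 0.00624), the opposite side from SUM159. In the fit of all 24 libraries that MAFF call was lost (edgeR adjusted p = 0.244). BACH1 in SW620 gave -0.38 ± 0.13 (edgeR adjusted p = 0.0644), and -0.60 ± 0.09 without ALDHbr replicate 2 (0.000274), a setting in which 5 of the 10 were called, 3 higher and 2 lower in ALDHbr cells, against 38.8% of all genes.

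Whether the populations differed in their response to NIF was tested as an interaction. By edgeR 0 of 10 genes passed in SUM159, where 0% of all genes did, and 0 of 10 in SW620, where 0.00717% did. DESeq2 also called 0 of them in each line, and at an unadjusted p of 0.05 edgeR gave 0 in SUM159 and 1 in SW620. The differences, ALDHbr minus ALDHneg, ran from -0.16 ± 0.20 for BACH1 to 0.19 ± 0.10 for SQSTM1 in SUM159. In SW620 they ran from -0.32 ± 0.10 for MAFF to 0.24 ± 0.18 for BACH1 (edgeR adjusted p = 0.673 and 0.955). Without ALDHbr DMSO replicate 2 the BACH1 value in SW620 was 0.44 ± 0.12 (edgeR adjusted p = 0.115) and 27 genes in all were called, 0.191%, with 0 of the 10 among them.

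Between the lines under DMSO most of the transcriptome differed, with 81.3% of genes called in ALDHbr cells and 81.2% in ALDHneg cells, and 7 and 8 of the 10 genes were among them. BACH1 was the gene most above SUM159 in SW620, by 1.06 ± 0.14 in ALDHbr and 1.62 ± 0.14 in ALDHneg cells (edgeR adjusted p = 2.88e-07 and 1.89e-10), and by 0.86 ± 0.13 in ALDHbr cells without SW620 ALDHbr DMSO replicate 2. CUL3 was higher by 0.52 ± 0.06 and 0.50 ± 0.06, and NFE2L1 by 0.44 ± 0.06 and 0.62 ± 0.06. MAFF was lower in SW620, with log2 differences of -0.47 ± 0.19 and -1.58 ± 0.20, and so was MAFK, with -0.20 ± 0.06 and -0.61 ± 0.06. Without SW620 ALDHbr DMSO replicate 2 the ALDHbr calls of MAFF and MAFK were lost (edgeR adjusted p = 0.0875 and 0.0513). OSGIN1 was also higher in SW620, by 0.40 ± 0.12 and 0.37 ± 0.12, KEAP1 in ALDHbr cells by 0.16 ± 0.07, and MAFG and SQSTM1 in ALDHneg cells by 0.20 ± 0.07 and 0.16 ± 0.07. Library-size scaling moved the median of all genes from -0.05 to -0.20 in ALDHbr cells and from -0.07 to -0.24 in ALDHneg cells, and with it the KEAP1, MAFG and ALDHneg OSGIN1 calls were lost (edgeR adjusted p = 0.879, 0.711 and 0.101) and SQSTM1 came to -0.0059. Over all 12 alternatives the KEAP1 call was lost in 9, with DESeq2 among them (adjusted p = 0.081), the MAFG call in 4, and the SQSTM1 call was lost in 5 and its direction turned in 1. NFE2L2 itself was not called in either population, at 0.04 ± 0.06 and -0.07 ± 0.06 (edgeR adjusted p = 0.553 and 0.319).

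The known targets of NRF2 were, where called, higher under NIF in the fits without the block. Of 30 targets tested in SUM159, 17 were higher and 0 lower in ALDHbr cells (median log2 fold change 0.35), and 10 were higher and 0 lower in ALDHneg cells (0.29). Of all genes 0.936% and 1.1% were called higher there. With the replicate block the counts were 23 higher and 1 lower, the export pump gene ABCC2 (-0.40 ± 0.10, edgeR adjusted p = 0.00798), and 22 higher and 1 lower, ABCC3 (-0.28 ± 0.06, 0.00342). The block also called more of all genes, 13.3% and 13.2% in either direction. In SW620, 31 of 32 were higher in each population (0.98 and 1.08), against the 21.4% and 22.3% of all genes called higher, the exception being PRDX1, at 0.05 ± 0.09 and 0.19 ± 0.09. In SUM159, HMOX1, which degrades heme, led with 868 ± 209 CPM after NIF against 234 ± 74.2 CPM in ALDHbr cells (1.89 ± 0.22, edgeR adjusted p = 0.000249) and a log2 fold change of 1.42 ± 0.22 in ALDHneg cells (0.00249). AKR1C1, an aldo-keto reductase, followed with 0.87 ± 0.12 and 1.00 ± 0.13 (edgeR adjusted p = 0.000585 and 0.00045). In SW620, AKR1C1 rose 11.6-fold and 12.7-fold and AKR1C2 8.97-fold and 7.78-fold, 2 near-identical genes between which reads may be split uncertainly. In SUM159 most target transcripts that were called were thus higher in the same libraries in which NFE2L2 transcripts were lower.

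Genes around p62 were called in SW620. Of 13 tested genes of autophagy receptors, the ATG8 family and their control, 9 were higher and 0 lower in ALDHbr cells (median 0.52) and 10 were higher and 0 lower in ALDHneg cells (0.50), where 21.4% and 22.3% of all genes were called higher. GABARAPL1, an ATG8 family gene, reached 15.0 ± 0.93 CPM after NIF against 7.51 ± 0.25 CPM in ALDHbr cells (1.00 ± 0.09, edgeR adjusted p = 7.67e-07), and its log2 fold change was 1.35 ± 0.09 in ALDHneg cells. MAP1LC3A, another ATG8 family gene, gave 0.98 ± 0.21 and 1.27 ± 0.22 (edgeR adjusted p = 0.00174 and 0.000355). In SUM159, edgeR without the block called 0 of the 13 in either population, with 1 and 2 at an unadjusted p of 0.05. The block and DESeq2 each called TOLLIP, a receptor adaptor, in ALDHbr cells (with the block 0.23 ± 0.06, edgeR adjusted p = 0.00804) and OPTN, an autophagy receptor, in ALDHneg cells (-0.31 ± 0.06, 0.00151).

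Of 7 other CNC and Maf factors, 6 were tested in SUM159 and 4 in SW620. NFE2L3, the third NRF-type factor, had 60.5 ± 3.14 CPM after NIF against 106 ± 5.10 CPM in SW620 ALDHbr cells (-0.81 ± 0.06, edgeR adjusted p = 7.24e-08) and 53.9 ± 1.09 CPM against 99.3 ± 4.09 CPM in ALDHneg cells (-0.88 ± 0.06, edgeR adjusted p = 2.79e-08). It was thus lower where NFE2L2 and NFE2L1 were higher. In SUM159 ALDHbr cells it had 0.987 ± 0.27 CPM against 1.87 ± 0.14 CPM (-0.93 ± 0.24, edgeR adjusted p = 0.0469), a call lost in 7 of 14 alternatives, each library left out among them, and kept with the replicate block (edgeR adjusted p = 0.00823). With the block 2 of the list were higher and 1 lower in SUM159 ALDHneg cells, the lower being NFE2L3 (-0.66 ± 0.19, edgeR adjusted p = 0.0255). NRL, the Maf factor of the retina, fell by 0.90 ± 0.22 and 0.78 ± 0.19 on the log2 scale in SW620 from 1.10 ± 0.12 and 1.52 ± 0.31 CPM (edgeR adjusted p = 0.00495 and 0.00441).

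For the machinery that degrades NRF2 the shares called have to be set beside those of all SW620 genes, 21.4% higher and 21.9% lower in ALDHbr cells and 22.3% and 22.7% in ALDHneg cells. Of 18 genes tested, 5 were higher and 7 lower in SW620 ALDHbr cells and 7 higher and 6 lower in ALDHneg cells, with a median of -0.01 and 0.03. BTRC, the adaptor of the KEAP1-independent ligase, gave 0.25 ± 0.07 and 0.38 ± 0.07 (edgeR adjusted p = 0.00774 and 0.000307), and GSK3B, the kinase that marks NRF2 for it, 0.37 ± 0.10 and 0.31 ± 0.10 (0.00806 and 0.02). TRIM21, a ligase that modifies p62, gave -0.34 ± 0.07 and -0.31 ± 0.07 (edgeR adjusted p = 0.00164 and 0.00281). RBX1, the RING subunit that CUL3 works with, was lower in ALDHneg cells (-0.29 ± 0.10, edgeR adjusted p = 0.0289), and NEDD8, the modifier that activates cullins, in ALDHbr cells (-0.31 ± 0.12, edgeR adjusted p = 0.046). Leaving out 1 library ended the call of NEDD8 and that of GSK3B in ALDHneg cells in 4 of 6 cases each, and that of RBX1 in 5 of 6. In SUM159 CUL4B was the single call, with and without the block, at 65.7 ± 3.72 CPM under NIF against 96.5 ± 3.88 CPM in ALDHbr cells (-0.55 ± 0.06, edgeR adjusted p = 5.59e-05) and -0.59 ± 0.06 in ALDHneg cells (edgeR adjusted p = 5.87e-05).

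Among 11 tested genes whose proteins compete with NRF2 for KEAP1 or interfere with their binding, 3 were higher and 4 lower in SW620 ALDHbr cells and 4 higher and 4 lower in ALDHneg cells. With 11 genes these counts are not far from the shares of all genes given above. CDKN1A, the cell cycle inhibitor p21, rose by 1.91 ± 0.08 and 2.15 ± 0.08, and SESN2, a stress-induced sestrin, by 1.48 ± 0.08 and 1.72 ± 0.08. SESN1, the related sestrin, gave -0.96 ± 0.09 and -0.79 ± 0.10, PGAM5, a mitochondrial phosphatase bound by KEAP1, -0.43 ± 0.05 in ALDHbr cells, and FAM117B -0.53 ± 0.10 in ALDHneg cells. In SUM159 edgeR without the block called 0 of the 11, with 1 and 3 at an unadjusted p of 0.05, and DESeq2 0 and 1, CDKN1A in ALDHneg cells. With the block IKBKB was lower in ALDHbr cells (-0.16 ± 0.05, edgeR adjusted p = 0.0382), and SESN2 and CDKN1A were higher in ALDHneg cells (0.50 ± 0.11 and 0.30 ± 0.07, 0.00328 and 0.00452).

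Of 8 tested genes that process NFE2L1, 4 were higher in SW620 ALDHbr cells, and 3 were higher and 1 lower in ALDHneg cells. Of all genes 21.4% and 22.3% were called higher in these populations, and 22.7% lower in ALDHneg cells. With 8 genes the ALDHneg counts are not far from these shares. NGLY1, which strips the glycans of NFE2L1, gave 0.45 ± 0.06 and 0.47 ± 0.06, and OGT 0.44 ± 0.08 and 0.40 ± 0.08. DDI2, the protease that cuts it, was the lower one (-0.36 ± 0.13, edgeR adjusted p = 0.031, lost in 5 of 14 alternatives). Of 11 coactivators and corepressors, 3 were lower in each SW620 population and 0 higher, where 21.9% and 22.7% of all genes were called lower. Among them were HDAC3 (-0.26 ± 0.07 and -0.22 ± 0.07, lost in 1 and 3 of 14 alternatives), RXRA in ALDHbr cells (-0.16 ± 0.04, lost in 1 of 14) and RARA in ALDHneg cells (-0.22 ± 0.06, lost in 4 of 14 alternatives). In SUM159 edgeR without the block called 0 of either list, with 0 and 0 of the first and 3 and 1 of the second at an unadjusted p of 0.05, and DESeq2 called HDAC1 higher in ALDHbr cells. With the block SEL1L and RXRA were lower and HDAC1 higher in ALDHbr cells (edgeR adjusted p = 0.021, 0.015 and 0.025), and 0 of either list passed in ALDHneg cells.

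Last, the genes whose log2 CPM followed that of NFE2L2 most closely over the 12 libraries of a line are given as a description, since libraries of a group share their treatment. In SUM159 they were TFAP2A (Pearson r = 0.966), HJURP (0.965) and SPRY2 (0.96), among 9796 genes of sufficient level. In SW620 they were LRP12 (0.982), NPAS2 (0.975) and LIPH (0.966), among 9456 genes.

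Some reads cannot be assigned with certainty. In RefSeq the spans of NFE2L2, MAFG, MAFF, MAFK, SQSTM1, CUL3 and OSGIN1 overlap 1 or 2 other genes each, and how shared reads were counted is not given in the sources used here.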

How the data were processed

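Total RNA of 24 SUM159 and SW620 samples was sequenced, and the authors deposited 1 table of raw gene counts. The submitters' processing notes name FastQC, STAR and GRCh38. The counting tool and annotation are not given in the sources used here.

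Testing used edgeR 4.0.16 (R 4.3.3) with filterByExpr, TMM scaling and its quasi-likelihood test, p-values being adjusted by Benjamini-Hochberg over all genes (threshold 0.05). Each line was fitted on its own 12 libraries, and comparisons between lines on all 24 (16271 genes). CPM use TMM-scaled totals within a line, and log2 CPM a prior count of 2. Transcript lengths are those of GENCODE MANE Select. The alternatives were DESeq2 1.42.0, RLE or library-size scaling, no filter, at least 10 counts in every library, only the groups compared, all 24 libraries and a replicate block. Each library of the groups compared was also left out in turn. The steps were tested on simulated data.

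No 2 replicates agreed within sampling noise (chi-square per gene at least 1.95). Deviations from group means of same-numbered SUM159 libraries correlated at 0.125 to 0.451 in 18 of 18 pairs, and not so in SW620. The experiment numbers of the labels were used as pairs only in the fits with the replicate block. The main fits, on which the figures rest, left this pairing out.

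The members and gene lists were chosen with earlier results of these data known. Named are the members, the 2 called genes of each list furthest up and down in each comparison of NIF with DMSO, the 3 genes most correlated with NFE2L2 per line (mean log2 CPM of at least 3), and ALDH1A1 and ALDH1A3. PRDX1, ABCC2, ABCC3, TOLLIP, OPTN, IKBKB, SEL1L and HDAC1 were named after their values were seen. A gene that this rule also names is not reported here.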

Additional observations from a re-analysis of the deposited data

Results flagged for a closer look

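The response to NIF differed between the lines in 15 tests, each the log2 fold change in SW620 minus that in SUM159 by an edgeR interaction contrast over all 24 libraries. In ALDHbr cells the differences were 0.56 for NFE2L2, 0.33 for NFE2L1, 0.76 for BACH1, 0.93 for MAFG, 1.08 for MAFF, 0.40 for MAFK, 1.25 for SQSTM1 and 1.43 for OSGIN1. In ALDHneg cells they were 0.57 for NFE2L2, 0.38 for NFE2L1, 1.02 for MAFG, 1.46 for MAFF, 0.58 for MAFK, 1.52 for SQSTM1 and 1.41 for OSGIN1. For NFE2L2 the 2 lines moved in opposite directions, lower under NIF in 6 of 6 SUM159 libraries and higher in 6 of 6 SW620 libraries than any DMSO library of the same population. For SQSTM1 and OSGIN1 both lines moved the same way and differed in size. Groups of 3 libraries are too small for a test of single outlying libraries.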

How the results depend on the processing

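Of the member counts under the alternatives, 168 stayed within 1.5 times and 14 moved. Of the members' own values that were tallied, 1176 kept their direction and their side of the threshold, 43 lost a call, 16 gained one and 11 turned direction. Of the other named genes 607 kept both and 37 lost a call. All members were tallied for NIF against DMSO and for the difference in its effect between lines. For the populations, the interaction and the lines under DMSO, only called members and those at the 2 ends of the range were. Calls gained there by other members are not in these numbers. With the replicate block 5 members were called in SUM159 ALDHbr and 6 in SUM159 ALDHneg cells, and all genes called by it were 1994 and 1970 in place of 473 and 493. In SW620, where 1 of 18 pairs correlated above 0.1 and 2 of 12 libraries best with their own number, the block left 8 members in ALDHbr cells (NFE2L2 edgeR adjusted p = 0.0827) and 9 in ALDHneg cells. Between the lines under DMSO it ended the ALDHneg calls of MAFG (edgeR adjusted p = 0.0582) and SQSTM1 (0.163), and it changed no other call of a tallied member. For ALDHbr against ALDHneg cells, DESeq2 called 1 member in SUM159 and 2 in SW620, no filter 2 in SW620, and the fit of all 24 libraries 0.

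With each library left out in turn, NIF called 2 to 3 members in SUM159 ALDHbr, 1 to 3 in SUM159 ALDHneg, 8 to 9 in SW620 ALDHbr and 9 in SW620 ALDHneg cells. The population counts were 1 to 2 in SUM159 and 1 to 5 in SW620, and those between lines under DMSO 5 to 6 in ALDHbr and 5 to 8 in ALDHneg cells (5 without SUM159 ALDHneg DMSO replicate 3). The values that turned direction were near 0 and not called. Over the libraries left out, the log2 fold change of NIF in SUM159 ALDHbr cells ran from -0.055 to 0.12 for BACH1, from -0.46 to 0.012 for MAFF and from -0.011 to 0.096 for CUL3. For CUL3 it ran from -0.017 to 0.045 in SUM159 ALDHneg and from -0.048 to 0.017 in SW620 ALDHbr cells, and its difference between lines in ALDHbr cells from -0.11 to 0.0072. SQSTM1 between lines in ALDHneg cells under DMSO came to -0.0059 with library-size scaling. The causes were not tested.

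Over all genes in SUM159, DESeq2 called 875 in ALDHbr and 884 in ALDHneg cells under NIF, the fit of all 24 libraries 725 and 743, only the groups compared 292 in ALDHneg cells, and libraries left out 222 to 322 and 192 to 584 (584 without SUM159 ALDHneg DMSO replicate 2). The SW620 population count of 1577 became 729 with only the groups compared and 712 to 5487 with libraries left out. The interaction in SW620, 1 gene by edgeR, was 29 by DESeq2 and 27 without ALDHbr DMSO replicate 2. With 3 libraries a group, BACH1 differences in SUM159 were not detectable beyond their spread.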
